A study of Mus musculus with 135 samples.

Results

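H19, Meg3, Igf2r, Grb10, Gnas, Ndn, Impact, Plagl1 and Peg3 are imprinted genes that have been tied to growth control or to quiescence of haematopoietic stem cells (HSCs). They were taken as a named list, with earlier results of these data known, and all 9 were found among the 15181 genes of the table of read counts. The cells were single LSK CD150+CD48- HSCs sorted from the bone marrow of C57BL/6 mice that all carried the Vwf-eGFP reporter, a transgene marking platelet-primed HSCs, at a young age of 2 to 3 months or an old age of 20 to 25 months, with 1 mouse for each age. Each cell was captured on the Fluidigm C1 system, its polyadenylated RNA was made into a Nextera XT library, and the question was how gene expression in HSCs differs with age. Of 61 young and 74 old cells, 52 and 62 passed the limits on mapped reads, mitochondrial reads and detected genes, and these 114 cells are described unless stated otherwise. Age, mouse, experiment and sex, as read from the sex-linked transcripts, cannot be told apart, so no test between ages was made. All ranges over cells describe those 2 mice only.

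Imprinted genes are expressed mainly from the allele of 1 parent, under the control of DNA methylation set in the germ line. In HSCs several of them act on growth signals or on entry into the cell cycle. H19 and Meg3 are long noncoding RNAs, Igf2r and Grb10 restrain signalling by insulin-like growth factors, Ndn is a growth suppressor, and Plagl1 and Peg3 are zinc finger proteins. H19, Meg3, Igf2r and Grb10 are known as maternally expressed in most tissues, and Ndn, Impact, Plagl1 and Peg3 as paternally expressed. Gnas has maternal, paternal and biallelic transcripts. The counts hold no information on the allele.

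The upstream regions of 4 of these genes are shown for orientation, since imprinting acts through methylation of CG dinucleotides, which are in capitals. Igf2r and Ndn had the largest differences between the ages, Meg3 was expressed in few cells at each age, and Peg3 had no read in the cells used. Each sequence is the 250 bases before a start listed for the gene in the RefSeq promoter table (GRCm38.p6), read 5′ to 3′ on the strand of the gene. Meg3 has a second listed start, which is not shown. For Peg3 the start in that table lies inside the RefSeq gene span, so that 43 of the bases shown belong to the gene. The windows are chr17:12769707-12769956 on the minus strand for Igf2r, chr7:62348027-62348276 on the plus strand for Ndn, chr12:109540746-109540995 on the plus strand for Meg3, and chr7:6730420-6730669 on the minus strand for Peg3.
Igf2r: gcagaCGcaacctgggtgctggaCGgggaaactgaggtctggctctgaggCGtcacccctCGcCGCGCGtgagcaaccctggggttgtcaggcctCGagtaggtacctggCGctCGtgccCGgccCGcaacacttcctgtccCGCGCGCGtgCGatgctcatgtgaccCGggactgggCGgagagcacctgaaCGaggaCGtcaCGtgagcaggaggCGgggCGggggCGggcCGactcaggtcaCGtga
Ndn: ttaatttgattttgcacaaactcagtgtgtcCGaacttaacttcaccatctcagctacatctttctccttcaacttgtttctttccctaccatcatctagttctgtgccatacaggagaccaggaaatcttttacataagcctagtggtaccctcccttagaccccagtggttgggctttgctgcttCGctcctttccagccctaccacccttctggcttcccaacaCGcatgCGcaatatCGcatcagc
Meg3: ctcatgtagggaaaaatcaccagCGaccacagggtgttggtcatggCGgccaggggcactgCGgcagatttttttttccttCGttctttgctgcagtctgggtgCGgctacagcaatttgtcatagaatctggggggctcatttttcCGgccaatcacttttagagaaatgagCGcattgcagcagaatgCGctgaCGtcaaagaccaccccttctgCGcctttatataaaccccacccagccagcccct
Peg3: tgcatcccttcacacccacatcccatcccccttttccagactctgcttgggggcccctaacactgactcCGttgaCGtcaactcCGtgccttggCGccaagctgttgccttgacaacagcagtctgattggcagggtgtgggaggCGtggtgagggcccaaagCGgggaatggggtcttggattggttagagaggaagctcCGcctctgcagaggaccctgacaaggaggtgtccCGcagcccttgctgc
Igf2r had 27 CG dinucleotides in this window, Meg3 10, Peg3 8 and Ndn 5, against a median of 6 over the 32851 windows of the reference table. The window of the second Meg3 start had 0. The letters TGCCGC, bound by the imprint-protecting factor Zfp57 when methylated, were searched on both strands of 12 such windows, which belong to 7 of the 9 genes and not to H19 or Impact. They were found in 1 place in the Meg3 window shown and in 1 place in the Plagl1 window, and 8.68% of all windows held them. The cyclic AMP response element TGACGTCA was found in the Meg3 and Peg3 windows shown alone among these 12, and 1.55% of all windows held it. These matches describe the sequence and were not tested for binding or methylation.

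The HSC transcripts in the sorted cells were uneven. Kit was expressed, here meaning a log2(CPM + 1) above 2, in 49 of 52 young and 61 of 62 old cells. Hlf was expressed in 49 and 55. Slamf1, which encodes the sort marker CD150, was expressed in 9 young and 15 old cells, Procr in 11 and 24, Tek in 13 and 11, and Fgd5 in 6 and 14. Cd48, used to sort the cells as negative, was expressed in 1 young and 0 old cells, and the globin gene Hba-a1 had none at either age. The erythroid transcript Klf1 was expressed in 2 young and 0 old cells, the myeloid transcript Itgam in 8 and 1, and the progenitor transcript Flt3 in 5 and 2. Lyz2, a myeloid transcript, was expressed in 43 cells of each age, the platelet transcript Gp9 in 14 and 24, and Elane and Mpo in at most 2 cells of an age. The sex-linked transcript Xist was expressed in 50 young and 8 old cells, with a highest value of 3.69 in old cells. The Y-linked Ddx3y was expressed in 0 and 38, and Eif2s3y in 0 and 42. A difference between the ages thus cannot be told apart from one between the sexes of the 2 mice. A young cell held 273236 to 5688706 counted reads (median 2798990) and an old cell 276316 to 4086659 (median 2116020).

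At least 1 of the 9 imprinted genes was expressed in all cells except 1 young cell. The young cells expressed 3.00 ± 1.20 of them (mean ± SD over 52 cells) and the old cells 2.89 ± 1.07 (62 cells), with a median of 3 at each age. Impact and Gnas were expressed in most cells, Igf2r, Grb10 and Ndn in a part of the cells, Meg3 in few, and H19, Plagl1 and Peg3 in almost none. The transcripts of the last 3 genes were thus near or at 0 in these cells. Quiescence was not measured, so the name of the list as genes of HSC quiescence was not tested for any of the 9 genes. When mean CPM was divided by transcript length, the order in young cells was Impact (266 CPM per kb), Gnas (56.3), Ndn (27.8), Grb10 (15.1), Igf2r (8.51) and Meg3 (1.02). In old cells Ndn, at 52.3 CPM per kb, stood above Gnas at 32.8, and Impact remained first with 285 CPM per kb. The Gnas value used the longest of its transcripts, 3947 bases, and a shorter length would raise it. Ndn was expressed in 20 old cells and Gnas in 52, so the order of these 2 genes depends on the length chosen and on few cells. The levels varied widely, and the SD over cells exceeded the mean CPM for each of the 6 genes at each age, with coefficients of variation from 1.10 to 6.24. Differences between neighbours in this order were not tested.

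**Figure D1:**
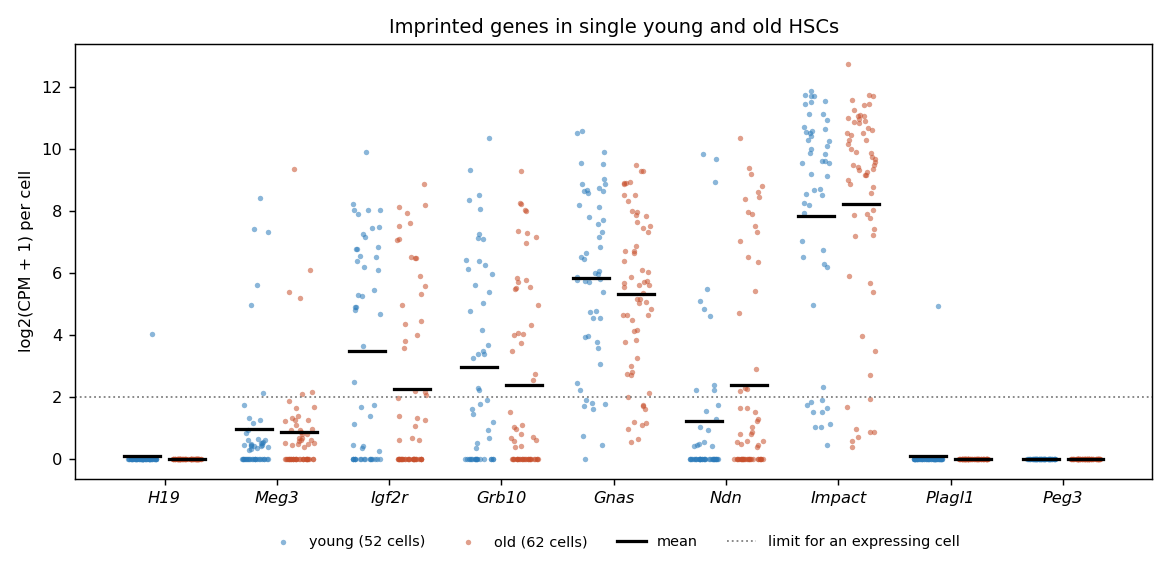
Level of each imprinted gene in single cells as log2(CPM + 1), with young cells (52) in blue, old cells (62) in red, black bars for the mean and a dotted line at the limit of 2 for an expressing cell. Impact and Gnas lie above the limit in most cells, and H19, Plagl1 and Peg3 lie at 0 in nearly all cells.

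Differences between the ages are given as the mean log2(CPM + 1) in old cells minus that in young cells. Ndn was higher in old cells by at least 1 on this scale and Igf2r was lower by at least 1, while the other 7 genes differed by less. Of the 15014 genes with a count, 3.91% were higher by at least 1 and 4.49% were lower by at least 1. Among the 9374 genes that reached the expressing limit in 10% or more of the cells, these shares were 6.24% and 6.98%, and 6 of the 9 imprinted genes belong to that group. The median difference of the 8 imprinted genes with a count was -0.10, beside -0.02 over all genes with a count. The share of expressing cells had overlapping 95% exact Clopper-Pearson intervals between the ages for all 9 genes. Over all genes with a count, those intervals were apart with a higher share in old cells for 0.899% and with a lower share for 0.733%. Among the 9374 more widely expressed genes these values were 1.35% and 1%. Such intervals cover the sampling of cells from 1 mouse per age and no variation between mice.

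**Figure D2:**
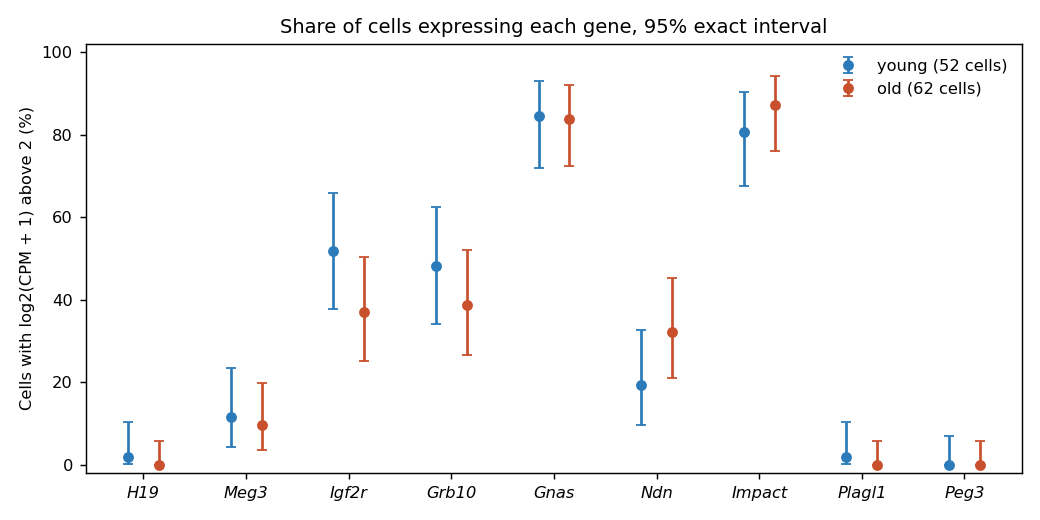
Share of young (blue, 52 cells) and old (red, 62 cells) cells with a log2(CPM + 1) above 2 for each imprinted gene, in percent, with bars for the 95% exact interval. The intervals of the ages overlap for every gene, and the largest gaps are those of Igf2r (51.9% and 37.1%) and Ndn (19.2% and 32.3%).

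Igf2r (chromosome 17, 12682406 to 12769706, GRCm38) encodes the cation-independent mannose 6-phosphate receptor, which takes up Igf2 for degradation. Its log2(CPM + 1) in young cells had a lowest value of 0, a median of 3.07 and a highest value of 9.90. In old cells the lowest value was 0, the median 0.31 and the highest 8.88. The ages overlapped over nearly their whole range, and the gap between the medians reflects that expressing cells were the majority in young cells only. The mean level was 3.47 ± 3.31 (SD over 52 cells) in young and 2.25 ± 2.95 (62 cells) in old cells, a difference of -1.23. Expressing cells were 27 of 52 young cells (51.9%, 37.6 to 66) and 23 of 62 old cells (37.1%, 25.2 to 50.3). Among the expressing cells the mean level was 6.42 in young and 5.67 in old cells, so both the share of expressing cells and the level within them were lower in old cells. The summed reads were 9003 in young cells (95% exact Poisson interval 8818 to 9191) and 4104 in old cells (3979 to 4232). Intervals of summed reads cover counting error only, and reads without molecular identifiers are not independent molecules. Airn, the noncoding RNA that silences the paternal Igf2r allele, overlaps Igf2r over 28396 bases, and no source says that strand was used in counting, so reads of the overlap cannot be told apart. Airn was expressed in 5 young and 3 old cells. Of these, 4 young cells and 0 old cells expressed Igf2r too.

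Grb10 (chromosome 11, 11930499 to 12037428) encodes an adaptor that binds the insulin and insulin-like growth factor 1 receptors and dampens their signal. Its level in young cells ran from 0 to 10.38 with a median of 1.85, and in old cells from 0 to 9.31 with a median of 0.65. The ages overlapped throughout. The mean level was 2.97 ± 3.14 (SD over 52 cells) in young and 2.38 ± 2.98 (62 cells) in old cells, a difference of -0.60. Grb10 was expressed in 25 young cells (48.1%, 34 to 62.4) and 24 old cells (38.7%, 26.6 to 51.9). Its mean level among expressing cells was 5.77 at both ages, so the lower mean of old cells lay in the share of expressing cells. The most abundant cell held 29.9% of the Grb10 reads of young cells and 19.4% of those of old cells.

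Ndn (chromosome 7, 62348277 to 62349928) encodes necdin, a growth suppressor of the MAGE family and a p53 target that restrains HSC proliferation. Its level in young cells had a lowest value and a median of 0 and a highest value of 9.84, and in old cells a lowest value of 0, a median of 0.56 and a highest value of 10.38. Most cells of each age lay below the limit of 2, and the difference lay in a larger upper group of old cells. Of the 10 expressing young cells, 3 had values of 8.96, 9.69 and 9.84 and the other 7 lay between 2.22 and 5.48. The 20 expressing old cells ran from 2.21 to 10.38. The mean level was 1.23 ± 2.50 (SD over 52 cells) in young and 2.38 ± 3.35 (62 cells) in old cells, a difference of 1.14. The expressing share was 19.2% in young cells (9.63 to 32.5) and 32.3% in old cells (20.9 to 45.3), and the mean level among expressing cells was 5.53 and 6.69. Summed Ndn reads were 6998 (6835 to 7164) in young cells, of which a single cell held 47.2%, and 10909 (10705 to 11116) in old cells, of which the most abundant cell held 22.4%. The log2 ratio of mean CPM was 0.91, and 1.19 without the most abundant cell of each age. The span of the noncoding RNA Gm32061 covers all 1652 bases of Ndn, and Gm32061 is not among the counted genes. Since use of strand is not given, its reads cannot be told apart from those of Ndn.

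Meg3 (chromosome 12, 109540996 to 109571729) is the maternally expressed noncoding RNA of the Dlk1 domain. It had at least 1 read in 29 young and 32 old cells, but only 6 cells of each age passed the limit of 2 (young 11.5%, 4.35 to 23.4; old 9.68%, 3.63 to 19.9). The expressing young cells had values of 2.14, 4.98, 5.61, 7.32, 7.42 and 8.44, and the expressing old cells had 2.09, 2.16, 5.19, 5.38, 6.09 and 9.36. These values overlapped, and the remaining cells with a read had at most 7 reads each. The medians over all cells were 0.36 in young and 0.43 in old cells, and the mean levels 0.98 ± 2.00 (SD over 52 cells) and 0.88 ± 1.66 (62 cells). A single young cell held 59.4% of the 2542 young reads of Meg3 and a single old cell 70.2% of the 1484 old reads. The log2 ratio of mean CPM was accordingly -0.15 with those cells and -1.54 without them. Rtl1 overlaps Meg3 over 6830 bases and had 0 reads in young and 4 reads in old cells. Dlk1, the paternally expressed gene of the domain, was expressed in 1 young and 3 old cells.

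H19 (chromosome 7, 142575530 to 142578146) is the maternally expressed noncoding RNA beside Igf2. All of its 40 reads came from a single young cell, at a log2(CPM + 1) of 4.05. The old cells gave 0 of 62, which allows a share of up to 4.84%. Igf2, the paternally expressed growth factor of the same domain, was expressed in 2 cells of each age. H19 and Igf2 were thus rare among the cells, and a difference with age was not detectable with this number of cells.

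Gnas (chromosome 2, 174284320 to 174346744) encodes the stimulatory G protein alpha subunit, which couples receptors to cyclic AMP, and gives further imprinted transcripts from other starts. Its level ran from 0 to 10.59 with a median of 5.98 in young cells, and from 0.54 to 9.48 with a median of 5.59 in old cells. The ages overlapped throughout, and 44 young (84.6%, 71.9 to 93.1) and 52 old cells (83.9%, 72.3 to 92.0) expressed it. The mean level was 5.86 ± 2.84 (SD over 52 cells) in young and 5.33 ± 2.57 (62 cells) in old cells, a difference of -0.53. Among expressing cells the mean was 6.70 in young and 6.11 in old cells. Gnasas1, an antisense RNA, overlaps Gnas over 11117 bases, and the table has 1 count for Gnas, so its transcripts cannot be told apart. Nespas, the antisense name carried in the table, was expressed in 1 young and 0 old cells.

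Impact (chromosome 18, 12954690 to 12992950) encodes an inhibitor of the amino acid sensing kinase Gcn2. It had a read in all 52 young and all 62 old cells, with 132379 and 128311 reads in all. Its level ran from 0.45 to 11.90 with a median of 9.38 in young cells and from 0.38 to 12.76 with a median of 9.46 in old cells. The distributions overlapped throughout, with a few cells near 0 at each age. The mean was 7.85 ± 3.69 (SD over 52 cells) in young and 8.24 ± 3.46 (62 cells) in old cells, a difference of 0.39. Expressing cells were 42 young (80.8%, 67.5 to 90.4) and 54 old cells (87.1%, 76.1 to 94.3), and their mean level was 9.39 and 9.31. The 10 young cells below the limit had a median of 5.5 reads and the 8 old cells 2.5 reads.

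Plagl1 (chromosome 10, 13090832 to 13131694), a zinc finger factor of growth arrest, had 21 reads in a single young cell at a level of 4.94 and was at 0 of 62 old cells, which allows up to 4.84%. Peg3 (chromosome 7, 6703892 to 6730462), a zinc finger protein of the p53 pathway, had no read in any of the 114 cells, which allows a share of up to 5.77% in young and 4.84% in old cells. Usp29, the paternally expressed neighbour of Peg3, was expressed in 0 young and 1 old cells. No difference with age could be detected for these genes.

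The cells were next divided by whether they expressed any of Ccna2, Ccnb1, Cdk1 and Cdc25c, 4 genes of the S, G2 and M phases. Of the young cells 27 did and 25 did not, and of the old cells 13 did and 49 did not. Gnas was expressed in 27 of 27 young cells with a cycle gene (87.2 to 100%) and in 17 of 25 without (68%, 46.5 to 85.1), intervals that did not overlap. In young cells the intervals were apart in this direction for 0.813% of the 15010 genes with a count other than the 4 class genes, and for 1.2% of the 9370 more widely expressed ones. In old cells the corresponding counts for Gnas were 13 of 13 (75.3 to 100%) and 39 of 49 (79.6%, 65.7 to 89.8), and these intervals overlapped. The share of all genes apart was 0.147% in old cells, and 0.235% of the more widely expressed ones. Young cells with a cycle gene expressed a median of 4614 genes and those without 3862, whereas the old classes had 3760 and 3939. The part of these gene numbers in the Gnas result was not tested. Within young cells the Pearson r of Gnas was 0.21 with the mean level of S phase genes and -0.08 with that of G2 and M phase genes. Within old cells these values were 0.33 and 0.26. Ndn was expressed in 8 of 27 young cells with a cycle gene and 2 of 25 without, but in 2 of 13 old cells with and 18 of 49 without. Its intervals overlapped within each age. In the cells without a cycle gene the mean level of Ndn was 0.60 in young and 2.65 in old cells, a difference of 2.05, and the expressing shares were 8.0% (0.984 to 26) and 36.7% (23.4 to 51.7). In the cells with a cycle gene the direction was the opposite, with mean levels of 1.82 in young and 1.37 in old cells. The expressing shares there were 29.6% (13.8 to 50.2) and 15.4% (1.92 to 45.4). Igf2r was nearly level across these classes, with means of 3.48 and 3.46 in young and 2.26 and 2.24 in old cells with and without a cycle gene. Meg3 was expressed in 1 of 27 young cells with a cycle gene and 5 of 25 without, and in 2 of 13 and 4 of 49 old cells. The 9 genes thus had no common direction with the cycle class.

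**Figure D3:**
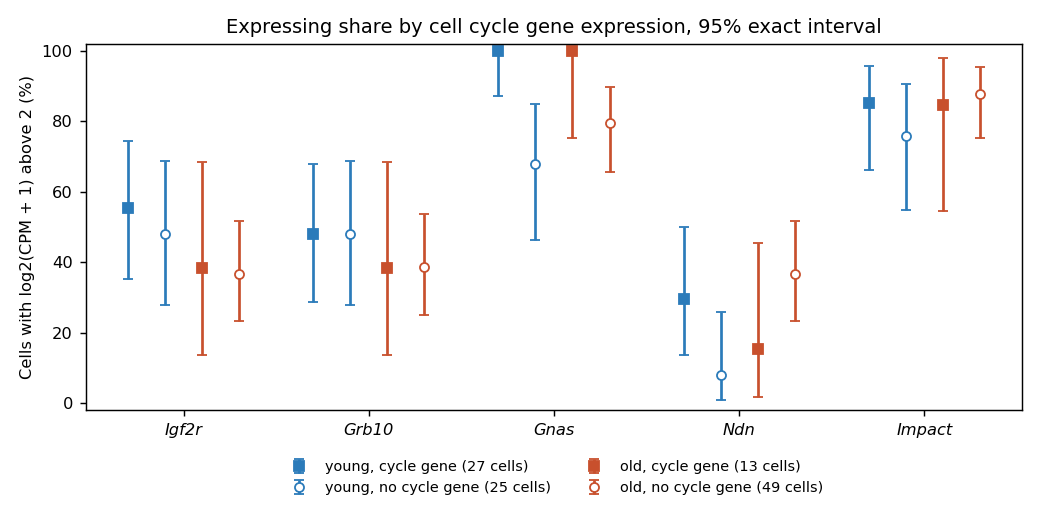
Share of cells with a log2(CPM + 1) above 2, in percent, for 5 imprinted genes in young (blue) and old (red) cells with (filled squares) and without (open circles) expression of a cycle gene, with bars for the 95% exact interval. Gnas lies at 100% in cells with a cycle gene at both ages, and Ndn is lowest in young cells without one at 8.0%.

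The 6 genes with expression in 10% or more of the cells varied largely independently of each other. Their 15 pairs had Pearson r of log2(CPM + 1) between -0.16 and 0.26 over the 52 young cells and between -0.13 and 0.21 over the 62 old cells, and cells of an age share their mouse and capture. Their r with the log10 of the number of counted reads lay between -0.31 and 0.07 in young and between -0.31 and 0.07 in old cells. Peg12, which lies 111942 bases from Ndn and is also paternally expressed, was expressed with Ndn in 4 young cells, where independence would give 2.31, and in 9 old cells, where it would give 8.39. The closest patterns among 9374 genes, by r over the 114 cells with each age centred on its mean, were those of Cdk18 (0.45) for Meg3, Rfc2 (0.45) and Dut (0.39) for Gnas, Myo6 (0.41) and Spry1 (0.38) for Grb10, Eif4e (0.37) for Impact, Dnajc8 (0.36) for Igf2r, and Car13 (0.35) for Ndn. Bcr had 0.41 with Meg3, but r of 0.72 in young and -0.05 in old cells. Eif4e had r of 0.20 with Impact in young and 0.51 in old cells. All of these are the highest r picked from 9374 genes, and how high such a pick would be by chance was not tested. Cdk18 was expressed in only 5 young and 12 old cells, Myo6 in 6 and 8 and Car13 in 4 and 8, whereas Dnajc8 was expressed in 43 and 47.

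Of 54 further imprinted genes listed, 36 were used here, 35 had a count and 18 were expressed in 10% or more of the cells. Their median difference was 0.04, with 4 higher and 3 lower by at least 1. Over all genes with a count, 3.91% were higher and 4.49% were lower by at least 1. The genes known as maternally expressed gave 3 higher and 3 lower of 17 with a count, and the paternally expressed genes 1 higher and 0 lower of 18. Peg12 differed most upwards, from 1.60 in young to 3.05 in old cells, with 12 and 26 expressing cells. Blcap (0.43 and 1.82), Tssc4 (0.97 and 2.12) and Atp10a (1.22 and 2.26) were also higher in old cells. Ube3a, a ubiquitin ligase of the same domain as Ndn, was lower (5.39 and 3.74), as was Ppp1r9a (4.60 and 3.37). Slc22a18, a transporter beside Cdkn1c, was expressed in 10 young cells (19.2%, 9.63 to 32.5) and 1 old cell (1.61%, 0.0408 to 8.66), the only gene of the 35 whose intervals were apart. Of all genes with a count, 0.733% had intervals apart in this direction. Genes with small differences included Kcnq1ot1, expressed in all 52 and all 62 cells with mean levels of 10.11 and 9.71, Cd81 with 7.48 and 6.87, and Cdkn1c, a cell cycle inhibitor of quiescent HSCs, with 1.86 and 1.73 and 14 and 15 expressing cells. Ndn and Igf2r thus lay among imprinted genes that differed in both directions.

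**Figure D4:**
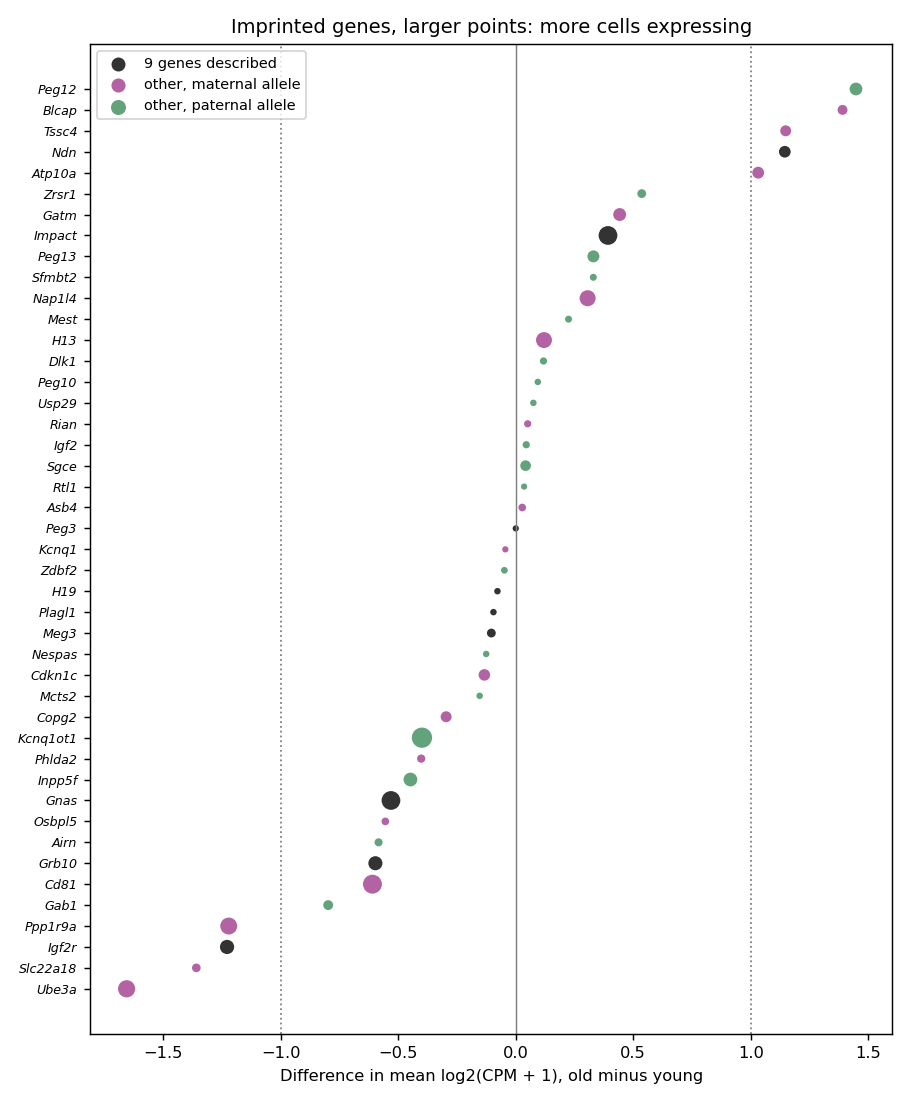
Mean log2(CPM + 1) of old cells less that of young cells for the 9 imprinted genes described (black) and 35 others with a count, coloured by the allele known to be expressed, with larger points for genes expressed in more cells and dotted lines at a difference of 1 in either direction. Ndn lies with Peg12, Blcap, Tssc4 and Atp10a at the upper end and Igf2r with Ube3a, Slc22a18 and Ppp1r9a at the lower end.

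Among 15 genes that set, keep or remove imprints, 0 were higher and 5 were lower by at least 1 in old cells, with a median difference of -0.60. All 15 were expressed in 10% or more of the cells, and of all such genes 6.24% were higher and 6.98% were lower. The maintenance methylation factors Uhrf1 (3.77 and 1.28) and Dnmt1 (4.48 and 2.87), the de novo methyltransferase Dnmt3a (4.46 and 2.36), the Zfp57 corepressor Trim28 (4.97 and 3.63) and the dioxygenase Tet2 (5.14 and 3.88) were the lower ones. The expressing share was lower with intervals apart for Dnmt3a (37 young and 23 old cells) and Uhrf1 (26 and 10), beside 1% of the more widely expressed genes. Zfp57 itself was expressed in 6 young and 7 old cells. Genes of S phase moved alongside, with 22 of 42 lower by at least 1 and 0 higher, beside 4.49% and 3.91% of all genes with a count. The part of S phase genes in the lower Uhrf1 and Dnmt1 was not tested.

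Of 13 genes of insulin-like growth factor signalling, the pathway of Igf2r and Grb10, Akt1 alone was higher by at least 1 (2.12 and 3.45), and 0 were lower. The shares over all genes with a count were 3.91% higher and 4.49% lower. The receptor gene Igf1r was expressed in 49 young and 60 old cells at mean levels of 7.00 and 6.83, and its ligand gene Igf1 in 5 and 3 cells. Of 12 partners of Impact, Gnas and Ndn, 1 was higher and 4 were lower. All 12 were expressed in 10% or more of the cells, and of all such genes 6.24% were higher and 6.98% were lower. Atf4, the transcription factor downstream of Gcn2, was higher in old cells (4.06 and 5.96), and Eif2ak4, which encodes Gcn2, was lower (2.16 and 1.12). The G protein subunit gene Gng2 (2.73 and 1.07) and the adenylyl cyclase gene Adcy7 (3.54 and 2.50) were lower, while Gnb1 had 10.24 and 9.75. Trp53, the p53 gene upstream of Ndn, was lower too (7.52 and 6.24).

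The differences of Ndn and Igf2r kept their signs under 10 other choices of cells, scaling and summary. The difference of Ndn lay between 0.91 and 2.05 and that of Igf2r between -1.75 and -0.91. Cells with a cycle gene taken alone were not among these choices, and in them Ndn was lower in old cells (1.82 in young and 1.37 in old). When the ratio of mean CPM was taken without the most abundant cell of each age, Igf2r came to -0.63 and Ndn to 1.19. Grb10 stayed between -0.93 and -0.33 and Gnas between -0.78 and -0.07, the value nearest 0 for Gnas being that of cells without a cycle gene. Impact ranged from -0.03 to 0.51, with the lowest value when every cell deposited was taken, so its direction was not kept.

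**Figure D5:**
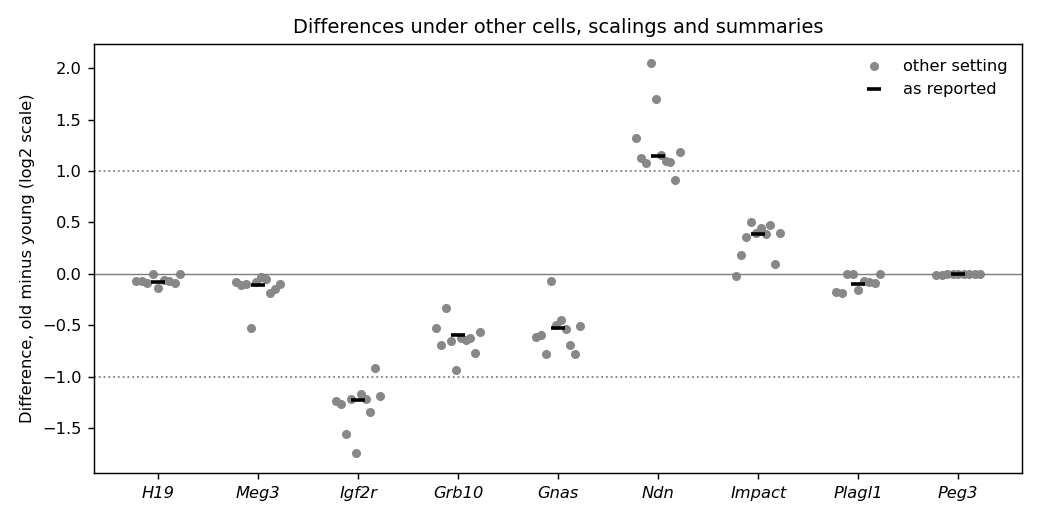
Difference between old and young cells for each imprinted gene as reported (black bar) and under other choices of cells, scaling or summary (grey points), on the log2 scale, with dotted lines at 1 and -1. The Ndn points lie from 0.91 to 2.05 and the Igf2r points from -1.75 to -0.91, whereas the Impact points lie on both sides of 0.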

How the data were processed

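Per the study's methods, the authors mapped single-end reads to mm10 with TopHat2 2.0.10, keeping 1 alignment a read, used rpkmforgenes to quantify RefSeq genes and deposited raw counts for each cell (use of strand: not given in the sources used here). The cells that pass the study's limits (at least 500000 mapped reads, at most 10% mitochondrial reads and at least 3000 genes) were taken with its per-cell table. CPM was computed over the counted reads of each cell and analysed as log2(CPM + 1), and a cell with a value above 2 was called expressing. A difference is the old mean minus the young mean, and a difference of at least 1 in size was counted. With 1 mouse per age no test was made. Shares have 95% exact Clopper-Pearson intervals and summed counts 95% exact Poisson intervals, and a share of 0 allows 3 cells. The imprinted genes and all lists were chosen with earlier results of these data known. Named were the 9 genes, the closest patterns by Pearson r (3 a gene were ranked), and from each list at most 5 genes past a difference of 1 and up to 3 with the highest levels. Atp10a, Cdkn1c, Airn, Igf2, Dlk1, Rtl1, Nespas, Usp29, Zfp57, Igf1 and the markers of HSCs and other cells were named after their values had been seen. Lengths were those of the longest RefSeq-matched GENCODE transcript, or the RefSeq gene span where shorter. Alternatives used other cells, a pseudocount of 0.1 CPM, size factors from edgeR 4.0.16 (TMMwsp) or DESeq2 1.42.0 (poscounts), cells thinned to 250000 reads, ratios of mean CPM and other limits for an expressing cell. Python 3.11.15 and scipy 1.17.1 were used, and the scripts were tested on simulated data.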

Additional observations from a re-analysis of the deposited data

How the results depend on the processing

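No paired analysis was possible because each age is 1 mouse and the cells carry no shared replicate numbers, and for the same reason no replicate was left out. As the log2 ratio of mean CPM, 0 of the 9 genes were higher and 0 were lower by at least 1, against 1 and 1 as reported, since Ndn came to 0.91 and Igf2r to -0.91 (1.19 and -0.63 without the most abundant cell of each age). The difference of Ndn was 2.05 in cells without a cycle gene (25 young and 49 old), so that the ratio it stands for moved by over 1.5 times, and the cause was not tested. Leaving out the most abundant cell of each age for each gene was chosen after seeing the data. Across all results, 2 values for the whole list moved in this way and 44 did not, and for single genes 23 moved and 208 did not, chiefly expressing shares under other limits. Counting every cell with at least 1 read put Ndn at 38.5% of young and 56.5% of old cells and Meg3 at 55.8% and 51.6%. Thinning to 250000 reads left H19 and Plagl1 at 1 young cell each. Thinning only removes reads, so it cannot show whether more reads would find H19, Plagl1 or Peg3 in further cells. What limits their detection was not tested.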

Other observations

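The 21 cells that did not pass the limits (9 young and 12 old) held some of the highest values of these genes. A single old cell among them had 10.96 for Grb10, above all cells used, and another old cell had 11.05 for Ndn. In the young cells left out, Gnas reached 11.19, Plagl1 had 147 reads in 1 cell, and Peg3 had its only 2 reads in 1 cell. Ndn was expressed in 0 of the 9 young cells, which allows up to 33.3% (33.6% by the exact interval), and in 4 of the 12 old cells left out.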
